A study of Homo sapiens with 4 samples.

Results

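The Tribbles genes TRIB1, TRIB2 and TRIB3 were examined by the open chromatin within 50 kb of their start sites, taken on hg19 as position 126442563 of chromosome 8 for TRIB1, 12857015 of chromosome 2 for TRIB2 and 361308 of chromosome 20 for TRIB3. The cells were wild-type HCT116, a line from a human colorectal carcinoma, and their open chromatin was read by ATAC-seq, which uses a transposase to tag accessible DNA. The 2 treated libraries came from cells given tunicamycin at 0.5 µg/ml for 6 h, and the 2 control libraries from cells given the solvent DMSO at 0.1% for the same time. Each library was made from 50000 cells, and the libraries of a group are biological replicates. The authors deposited 1 list of peaks per library. Peaks that shared at least 1 bp were merged into regions, and a region belonged to a gene's window if its middle lay within 50 kb. The windows held 41 of the 78788 regions of the series, 14 for TRIB1, 4 for TRIB2 and 23 for TRIB3, and 117 of the 234140 peaks. Of these regions, 10 lay within 2 kb of a start site. The TRIB1 window was chosen for a site 33.31 kb downstream of its start that was listed only after tunicamycin, so the contrast between groups is given there as a description.

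Tribbles proteins are pseudokinases: they keep the fold of a protein kinase but have little or no catalytic activity, and act by holding other proteins together. TRIB1 and TRIB2 bring the ubiquitin ligase COP1 to the transcription factor C/EBPα, which is then degraded, and TRIB3 is known as an inhibitor of the kinase AKT and as a partner of ATF4. Tunicamycin stops N-linked sugars from being added to new proteins, which then fail to fold in the endoplasmic reticulum (ER), and TRIB3 is a well-known target of the stress factors ATF4 and CHOP under such conditions.

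The stretches before the start sites of TRIB2 and TRIB3 are shown first, since both genes had peaks close to the start in these cells. The sequences come from RefSeq on GRCh38.p14, a later build than the hg19 of the peaks, so their coordinates cannot be set beside those of the peaks. Of the 3 genes, 2 had entries, 1 entry for TRIB2 and 3 overlapping entries for TRIB3, of which the first is shown. Each line gives the 250 bases before the start site, plus strand, 5′ to 3′, with every CG dinucleotide in capitals: chr2:12716686-12716935 for TRIB2 and chr20:381045-381294 for TRIB3.
TRIB2: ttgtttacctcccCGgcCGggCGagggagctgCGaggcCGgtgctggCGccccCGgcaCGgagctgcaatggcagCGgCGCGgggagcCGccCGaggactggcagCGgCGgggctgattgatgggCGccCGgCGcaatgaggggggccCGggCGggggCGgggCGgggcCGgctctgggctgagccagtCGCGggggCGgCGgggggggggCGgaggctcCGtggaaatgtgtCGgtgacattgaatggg
TRIB3: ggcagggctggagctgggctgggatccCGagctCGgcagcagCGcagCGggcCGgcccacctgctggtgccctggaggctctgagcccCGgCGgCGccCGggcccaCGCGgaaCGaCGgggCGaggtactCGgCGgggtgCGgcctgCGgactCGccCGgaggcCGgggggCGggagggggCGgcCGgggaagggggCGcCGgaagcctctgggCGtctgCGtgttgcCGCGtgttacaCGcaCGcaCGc

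Both stretches were dense in CG dinucleotides, with 30 in the printed bases of TRIB2 and 33 in those of TRIB3. Over the whole 300 bases of each entry, which run 50 bases past the start, the GC content was 77.3% for TRIB2 and 77.0% for TRIB3. The median over the 35116 RefSeq promoters of the same length was 58.7%, and 94.1% of promoters had a lower GC content than TRIB2 and 93.6% a lower one than TRIB3. The start site of the TRIB3 entry lies 535 bases after the first base of the RefSeq gene. The first printed base lies 285 bases after the gene's first base, so the printed stretch is within the gene. Motifs bound by ER stress factors were searched on both strands of these entries. The C/EBP-ATF core TGATGNAA is held by 3.62% of all promoters, the CRE TGACGTCA by 1.85%, the UPRE TGACGTGG by 0.729%, the AP-1 site TGANTCA by 7.71%, and the ER stress element (CCAAT, 9 bases of any kind, CCACG) by 0.0769%. These letters were not in the windows of TRIB2 or TRIB3, which says nothing of the stretches outside them.

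The lists held 56581 and 56566 peaks in DMSO replicates 1 and 2 and 58467 and 62526 in tunicamycin replicates 1 and 2. A peak's height is given as summit reads, the number of reads piled up at its highest point, which was recovered from the deposited fold and p-value. The median over a list was 15 or 16 reads and the smallest 3. No list held a peak under 100 bp, so a peak narrower than that would be missing. Read totals were not used here, and absence from a list does not mean that no reads fell there. Lists of peaks hold no expression, so the identity of the cells could not be checked against marker genes.

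Across the 3 windows, 29 and 23 peaks were listed after DMSO and 29 and 36 after tunicamycin. The mean was 26.0 ± 4.24 (SD, n = 2) after DMSO and 32.5 ± 4.95 (SD, n = 2) after tunicamycin. The groups touched at 29 peaks, and the two-sided exact permutation test gave p = 0.667, where 2 libraries against 2 cannot give a p below 0.333. The length covered by peaks was 4980 and 4214 bp after DMSO and 5752 and 6335 bp after tunicamycin, with no overlap between groups (exact permutation p = 0.333). Both totals include the site for which the TRIB1 window was chosen, so these p-values do not test for a change. Over the whole series the tunicamycin lists covered 1.066 times the length of the DMSO lists. The whole lists did not overlap either, at 10.444 and 10.495 Mb after DMSO and 10.719 and 11.608 Mb after tunicamycin. Of the 41 regions, 18 were common to all 4 libraries, 5 were in 3 libraries, 6 were mixed (1 library of each group) and 8 were in a single library. Gained regions, with a peak in each treated library and in neither control, numbered 4. No region was lost, which is the reverse pattern. Over the series 3.65% of regions were gained and 1.86% were lost. The number gained includes the site for which the TRIB1 window was chosen, so nothing is read from the total.

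**Figure D1:**
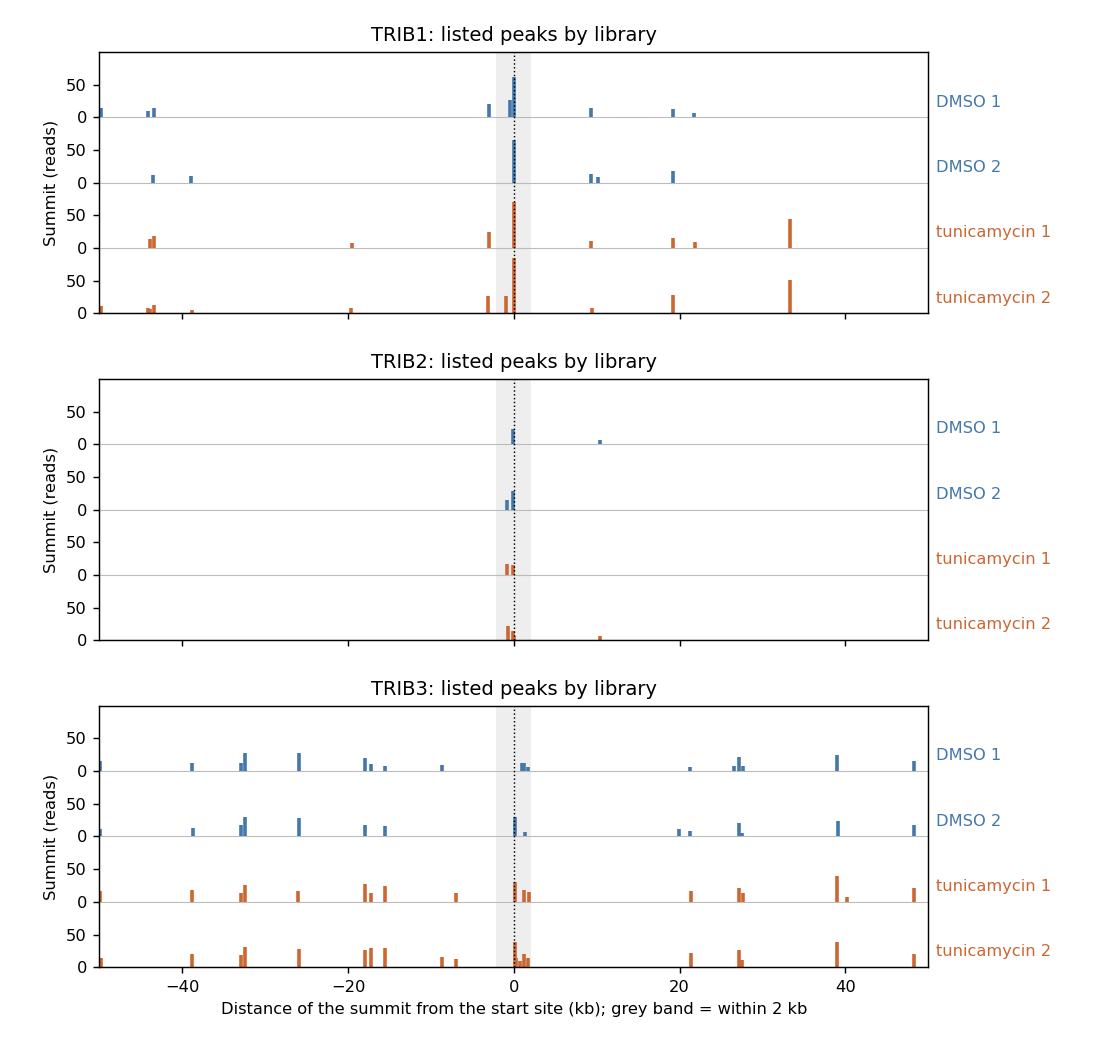
Peaks in the windows of TRIB1, TRIB2 and TRIB3 by library; the x axis is each summit's distance from the start site in kb, the height of each line is the number of summit reads, and the grey band marks 2 kb on either side of the start. The line at +33.31 kb of TRIB1 is seen only in the 2 tunicamycin libraries, at 45 and 51 reads, and the TRIB3 window holds more peaks in every library than the other windows.

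TRIB3, the member best known as an ER stress target, had the window with the most regions: 13 common, 1 gained, 1 mixed, 3 in 3 libraries and 5 in a single library. Within 2 kb of the start, peaks covered 367 and 246 bp in DMSO replicates 1 and 2 and 838 and 811 bp in tunicamycin replicates 1 and 2. Both tunicamycin libraries lay well above both DMSO libraries. The means were 306.5 ± 85.6 bp and 824.5 ± 19.1 bp (SD, n = 2 each), a ratio of 2.69 (two-sided exact permutation p = 0.333, the smallest the design allows). These distances are from the hg19 position taken as the start. On the later build, the start site of the RefSeq entry shown above lies 535 bases into the gene. Which transcript the hg19 position belongs to was not settled here, so which peaks count as downstream or within 2 kb depends on that choice. The same measure over 2 kb had a ratio of 1.127 at TRIB1 and 1.915 at TRIB2.

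Just downstream of that position, the region from 361373 to 361773 on chromosome 20 had no listed peak in DMSO replicate 1, 29 summit reads in DMSO replicate 2, 30 in tunicamycin replicate 1 and 38 in replicate 2. By height, DMSO replicate 2 therefore stood beside the tunicamycin libraries. By the percentile rank of its q-value within its own list it was above both, at 83.25 against 74.15 and 82.83. The widths separated it from them: the DMSO peak was 104 bp wide, and the tunicamycin peaks were 364 bp in replicate 1 and 165 bp in replicate 2, which listed a second peak of 170 bp and 14 reads beside the first. The next 2 regions were listed once each, at +0.67 kb in tunicamycin replicate 2 with 10 reads and at +1.06 kb in DMSO replicate 1 with 12 reads.

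The common region at +1.32 kb (362467 to 362794) had 13 and 7 summit reads after DMSO and 18 and 20 after tunicamycin. Its mean was 10.0 ± 4.24 reads against 19.0 ± 1.41 (SD, n = 2 each), and both treated summits were above both controls. The deposited fold, a ratio of summit to local background, was 8.04 and 4.405 after DMSO and 7.625 and 8.006 after tunicamycin. By fold, DMSO replicate 1 was thus above both treated libraries. The last promoter region, at +1.74 kb (362969 to 363135), had 6 reads in DMSO replicate 1, no listed peak in DMSO replicate 2, and 15 and 14 reads after tunicamycin.

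**Figure D2:**
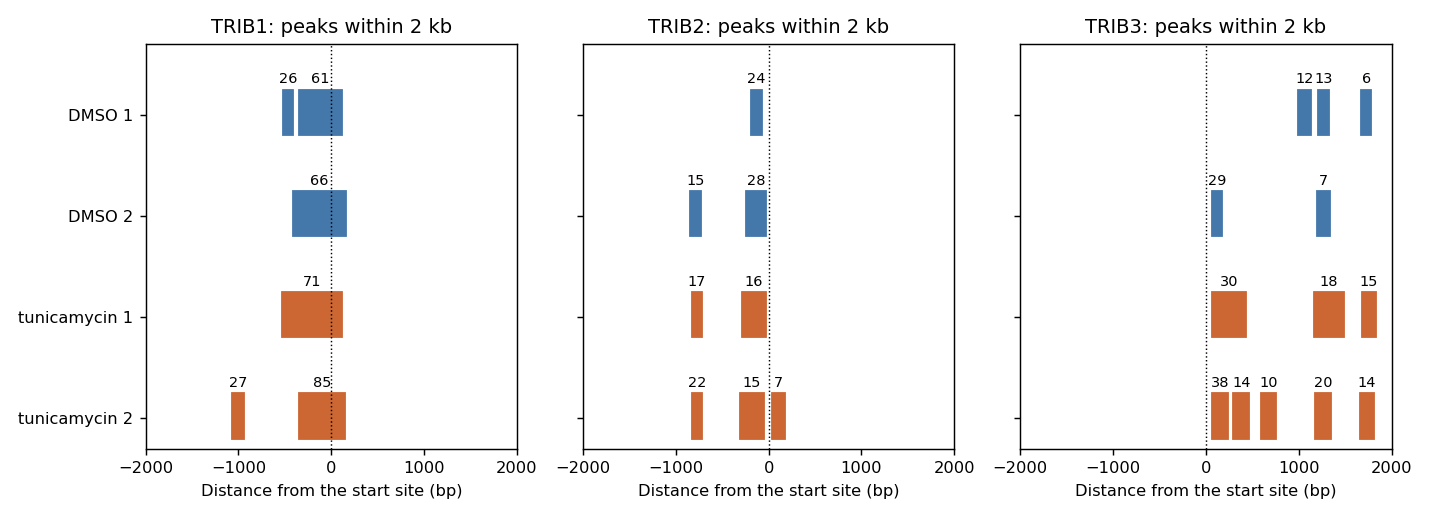
Peaks within 2 kb of each start site, drawn to scale from start to end in bp, with one row per library and the number of summit reads above each peak. At TRIB3 the blocks of the tunicamycin libraries add up to 838 and 811 bp and those of the DMSO libraries to 367 and 246 bp, all downstream of the hg19 position taken as the start.

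The 13 common regions of the TRIB3 window were compared by rank. Each region took the rank of its q-value within its own list, since a fold or q-value compares only within a list. Percentiles are over all peaks of a list, where 100 is the most significant peak. The counts of ranks and the scores below rank only the common regions of a list. The groups did not overlap in 9 of the 13 regions: both tunicamycin libraries ranked above both DMSO libraries in 7, and both ranked below in 2. Over the 40447 common regions of the series, 18.0% had both tunicamycin ranks above and 18.3% had both below. Ranks were turned into normal scores and compared with limma across all 40447 regions, of which 0.0519% passed a Benjamini-Hochberg adjusted p of 0.05. No region of the TRIB3 or TRIB2 window passed; 6 of their 14 common regions had an unadjusted p under 0.05, as had 2965 of the 40447. The smallest adjusted p was 0.27.

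The region with the largest rank change lay upstream, at -15.57 kb (345656 to 345819). It had 8 and 16 summit reads after DMSO and 24 and 30 after tunicamycin, at percentiles of 4.67, 43.3, 65.7 and 72.4 in the same order. The DMSO libraries lay far apart and both were below the treated ones. The normal score was higher after tunicamycin by 1.64 ± 0.473 (SE), with an adjusted p of 0.27 in limma. Without DMSO replicate 2, the higher of the controls, the region passed with an adjusted p of 0.0109, so that 1 library decides the call. The promoter region at +1.32 kb had a change of 1.02 ± 0.56 (SE) and an adjusted p of 0.726 in the same limma fit. That change was 0.0836 without DMSO replicate 2 and 1.965 without DMSO replicate 1, so it rested mostly on DMSO replicate 2.

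Downstream of TRIB3, the region at +21.34 kb (382528 to 382766) read 6 and 8 at its summit after DMSO and 17 and 22 after tunicamycin. Its mean summit was 7.0 ± 1.41 reads against 19.5 ± 3.54, a ratio of 2.79 and the highest among the 13 regions. The groups were clear of each other, while the limma test over all regions gave a change of 1.54 ± 0.498 (SE) and an adjusted p of 0.386. The region at +39.05 kb (400215 to 400507) was the best ranked of the window, with 24 and 23 reads after DMSO and 39 and 38 after tunicamycin. Replicates differed there by 1 read within each group, and the limma change was 0.85 ± 0.304 (SE) with an adjusted p of 0.463.

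The region at +27.58 kb (388785 to 388999) had 8 and 6 summit reads after DMSO and 14 and 11 after tunicamycin. Both treated libraries were above both controls, at low heights, and the limma change was 1.42 ± 0.632 (SE) with an adjusted p of 0.614. The groups also did not overlap at -38.81 kb, with 13 reads in each DMSO library and 18 and 20 after tunicamycin. At -17.94 kb the summits read 20 and 18 after DMSO and 27 in each tunicamycin library, and at +48.31 kb they read 15 and 18 against 21 and 20. In all 4 regions both treated summits were above both controls. The ranks among common regions were also apart except at +48.31 kb, where they overlapped. The percentiles over whole lists did not overlap there, at 47.6 and 53.4 after DMSO and 63.9 and 53.5 after tunicamycin.

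In 2 common regions of the TRIB3 window both tunicamycin ranks were below both DMSO ranks. The region at -32.44 kb (328787 to 328944), the second best ranked, had 28 and 30 reads after DMSO and 25 and 31 after tunicamycin, and its tunicamycin ranks were both just below the DMSO ranks. At -26.01 kb (335178 to 335423) the summits read 28 in each DMSO library and 16 and 28 after tunicamycin, so the lower mean rests on tunicamycin replicate 1. Over the 13 regions the ratio of mean summit reads, tunicamycin over DMSO, ran from 0.786 to 2.79 with a median of 1.42, where the median over all common regions was 1.09. Both tunicamycin summits were above both DMSO summits in 8 of the 13 regions and below in none, against 25.4% above over all common regions.

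**Figure D3:**
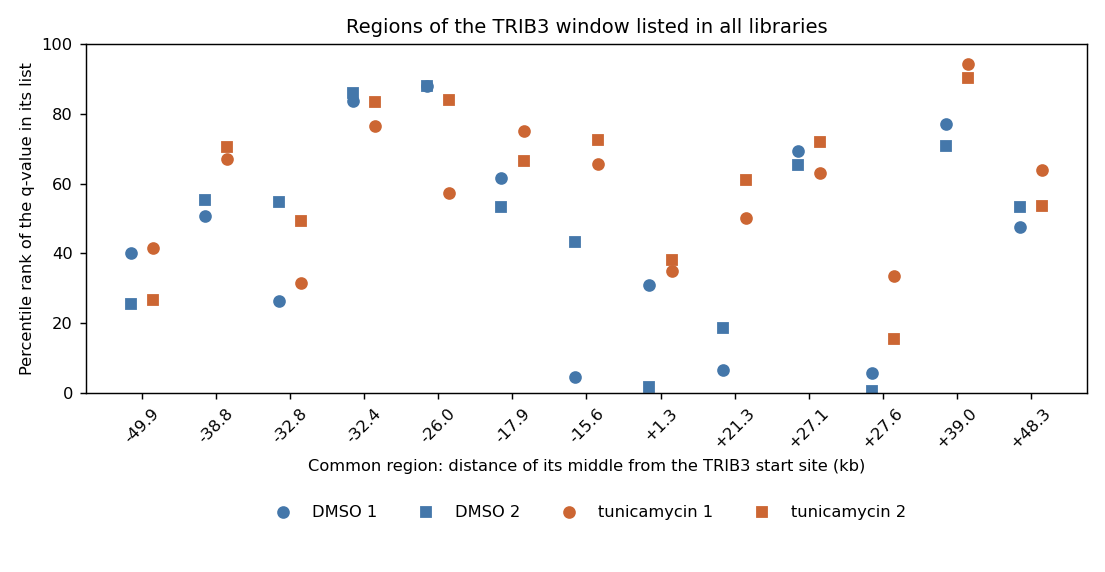
Percentile rank of the q-value within its list (y axis, 0 to 100) for the 13 common regions of the TRIB3 window, ordered along the x axis by distance from the start in kb; each point is 1 library. Ranked among common regions only, both tunicamycin libraries lie above both DMSO libraries in 7 regions and below them in 2. In the plotted percentiles they also lie above at +48.31 kb. None of the 13 passed the adjusted threshold.

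The deposited values also carry the background around each peak, the number of reads per position that the peak caller expected there. The stretch over which the caller took it is not given in the sources used here. Regions close together share reads in it and are not independent. In tunicamycin replicate 2 it was 1.62 to 1.64 at every TRIB3 peak within 2 kb of the start, so it was not particular to the region at +1.32 kb. At +1.32 kb of TRIB3 this local background was 0.741 and 0.816 after DMSO and 1.49 and 1.62 after tunicamycin. Both treated libraries stood at about the same level, clear of the controls: the means were 0.779 ± 0.053 and 1.56 ± 0.0929 (SD, n = 2 each), a ratio of 2.0. Of the 40447 common regions, 20 (0.0494%) had a ratio at least this high.

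At +21.34 kb the local background was 0.306 and 0.329 after DMSO and 0.706 and 0.855 after tunicamycin, again without overlap. The ratio was 2.46, and 7 of the 40447 common regions (0.0173%) reached it. Upstream, the ratio was 1.47 at -15.57 kb and 1.44 at -17.94 kb, while at -32.44 kb, -32.84 kb and -26.01 kb it lay between 0.919 and 0.993. The 5th and 95th percentiles over all common regions were 0.834 and 1.29. Both tunicamycin values were above both DMSO values in 8 of the 13 TRIB3 regions and below in none, against 27.6% above over all common regions. The q-value behind a peak's rank is taken against this background, so rank, summit and background are not separate measures. The local background was taken up after the lists had been examined, and the 2 regions named for it were picked by their values.

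**Figure D4:**
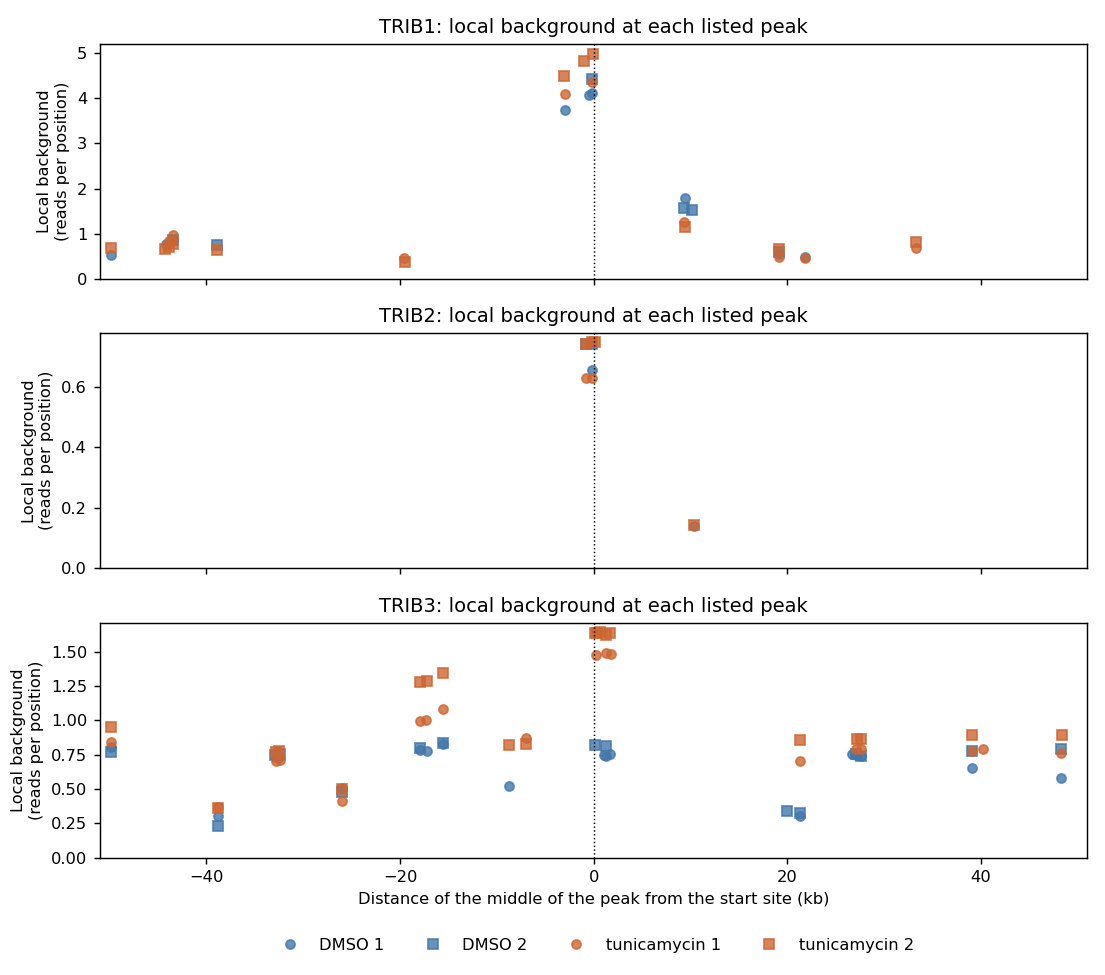
Local background in reads per position (y axis, a separate scale for each gene) at every listed peak, against the distance of the peak's middle from the start site in kb; each point is 1 peak in 1 library. In the TRIB3 window the tunicamycin points stand near 1.49 to 1.62 at +1.32 kb, where the DMSO points are at 0.741 and 0.816, and the groups also part at +21.34 kb.

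The gained region of the TRIB3 window, at -7.0 kb (354212 to 354403), was a low peak of 14 and 12 summit reads in the tunicamycin libraries, at percentiles of 31.5 and 20.3. The mixed region at -8.72 kb had 9 reads in DMSO replicate 1 and 16 in tunicamycin replicate 2. At -17.27 kb a region had 11 reads in DMSO replicate 1 and 13 and 29 after tunicamycin, with no listed peak in DMSO replicate 2. The remaining common regions overlapped between groups: the summits read 15, 12, 16 and 14 at -49.88 kb, 12, 18, 13 and 18 at -32.84 kb and 22, 21, 21 and 26 at +27.11 kb, in the DMSO and then the tunicamycin libraries. The single-library regions at +19.93, +26.67 and +40.17 kb had 8 to 12.

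TRIB1, which steers COP1 to its targets, had 4 common regions, 3 gained, 4 mixed, 1 in 3 libraries and 2 in a single library. The site for which its window was chosen lies on chromosome 8 from 126475815 to 126475938. It had 45 and 51 summit reads in tunicamycin replicates 1 and 2, widths of 104 and 124 bp, and no listed peak in either DMSO library. The 2 summits were 3 bp apart, where the median over the 2878 gained regions was 20 bp. Those regions were not matched to the site in height or width, so the values do not compare how well replicates agree. The site's mean percentile of 97.6 was the highest among the gained regions, a description of the value it was chosen by.

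The peaks at that site were narrow for their height. Peaks of at most 124 bp made up between 22.6% and 22.8% of each list, with a median of 10 summit reads, and between 99.74% and 99.87% of them had fewer than 45 reads. The site's height goes with the rank it was chosen by, so this too is only a description. The tunicamycin peak of replicate 1 was only 4 bp above the smallest width in the lists, so a DMSO peak of somewhat smaller width would not be listed. Peak numbers run in order along the lists, and in none of the 4 libraries was a number missing between the peaks on either side of the site. Those neighbours ended 11.3 to 14.0 kb upstream and began 34.5 kb downstream. The downstream neighbour was present in all 4 libraries, with 44 and 47 reads after DMSO and 37 and 51 after tunicamycin, and its groups overlapped.

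**Figure D5:**
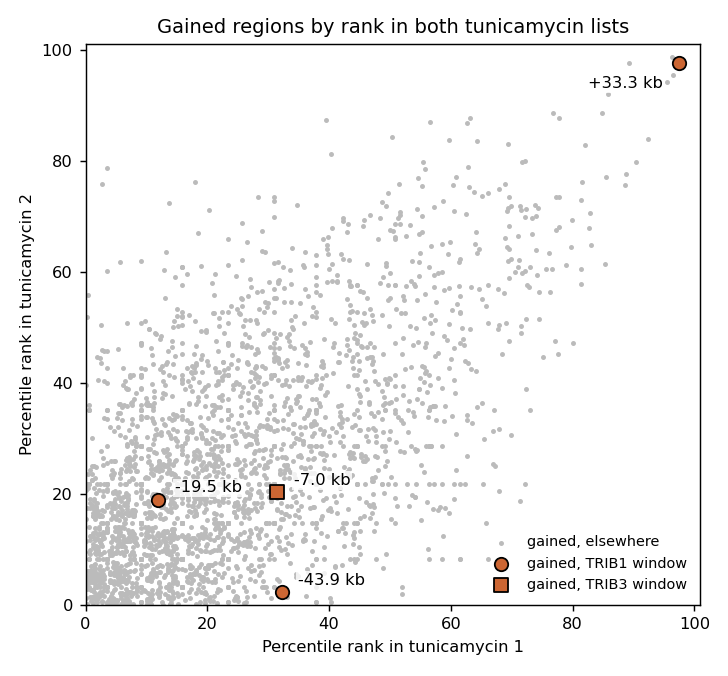
Percentile rank of each of the 2878 gained regions in tunicamycin replicate 1 (x axis) and replicate 2 (y axis), with those of the TRIB1 and TRIB3 windows marked by their distance from the start. The TRIB1 site at +33.31 kb stands at 97.6 and 97.7 in the upper corner, and the other 3 marked regions are at or below 32.3 in both libraries.

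The other 2 gained regions of the TRIB1 window were low. At -43.89 kb (126398609 to 126398734) the tunicamycin summits read 14 and 7, and at -19.52 kb (126422937 to 126423142) they read 8 and 9. These heights lay below the list medians. The 3 gained regions elsewhere whose ranks were nearest to those of the +33.31 kb site, measured as the distance between the 2 percentiles, lay on chromosome 2 from 135883151 to 135883312 (37 and 42 reads, distance 0.805), chromosome 8 from 145550311 to 145550525 (38 and 53 reads, distance 1.58) and chromosome 3 from 101522126 to 101522259 (33 and 34 reads, distance 2.43).

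The TRIB1 promoter held the highest peak of all 3 windows, a common region from 126442035 to 126442718 across the start site. Its summit read 61 and 66 after DMSO and 71 and 85 after tunicamycin. The means were 63.5 ± 3.54 and 78.0 ± 9.90 (SD, n = 2 each), a ratio of 1.23, and the groups did not overlap. DMSO replicate 1 listed a second peak inside this region. A promoter region at -1.0 kb was listed only in tunicamycin replicate 2, with 27 reads. Just outside the 2 kb limit, the region at -3.04 kb had 21 reads in DMSO replicate 1, none listed in DMSO replicate 2, and 25 and 26 after tunicamycin.

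The common region at +9.40 kb (126451831 to 126452102) had the largest rank change of the TRIB1 window, and it was lower after tunicamycin. Its summits read 15 and 13 after DMSO and 11 and 8 after tunicamycin, and its peaks were 250 and 186 bp wide after DMSO and 109 and 105 bp after tunicamycin. All 3 measures, with the local background (1.79 and 1.58 against 1.26 and 1.16), put both treated libraries below both controls. The tunicamycin peaks did not overlap each other, at 126451831 to 126451939 in replicate 1 and 126451957 to 126452061 in replicate 2. Both were joined into the region by the wider DMSO peaks, so the treated values come from different stretches. The background ratio of 0.718 was low for the series, since 99.2% of common regions had a ratio at least as high. The common regions at -43.48 kb (15, 12, 19 and 13 reads in the DMSO and then the tunicamycin libraries) and +19.18 kb (13, 18, 15 and 28 reads) overlapped between groups. The mixed regions at -49.84, -44.21, -38.87 and +21.84 kb and the single-library region at +10.20 kb had summits of 6 to 14 reads.

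TRIB2, the other COP1 partner, had few open regions: 3 of its 4 lay within 2 kb of the start and the last at +10.39 kb. The common region just before the start (12856704 to 12856987 on chromosome 2) had 24 and 28 summit reads after DMSO and 16 and 15 after tunicamycin. Both treated libraries were below both controls, at 15.5 ± 0.707 against 26.0 ± 2.83 reads (SD, n = 2 each), a ratio of 0.596. The peaks were nevertheless wider after tunicamycin, at 256 and 262 bp against 127 and 218 bp. Its rank change in limma was -1.30 ± 0.379 (SE) with an adjusted p of 0.276, so it did not pass, and its local background ratio was 0.985.

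The next TRIB2 region upstream, at -0.78 kb (12856172 to 12856299), had no listed peak in DMSO replicate 1, 15 reads in DMSO replicate 2, and 17 and 22 after tunicamycin. It thus stood in the opposite order to its neighbour, although without a value for 1 control. A region at +0.10 kb (12857051 to 12857189) was listed only in tunicamycin replicate 2, at 7 reads, and the mixed region at +10.39 kb had 7 reads in DMSO replicate 1 and 7 in tunicamycin replicate 2. No TRIB2 region was gained or lost.

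The edge of the windows fell between regions of ordinary height. The outermost regions inside were at -49.84 kb for TRIB1 (14 reads in DMSO replicate 1 and 11 in tunicamycin replicate 2), +10.39 kb for TRIB2 and -49.88 kb for TRIB3 (15, 12, 16 and 14 reads). The nearest outside were at -51.3 kb for TRIB1 (10, 9, 21 and 17 reads), -51.38 kb for TRIB2 (8 reads in tunicamycin replicate 2) and +50.97 kb for TRIB3 (25, 29, 26 and 31 reads). In RefSeq gene order the coding neighbours are NRSN2 and RBCK1 for TRIB3, NSMCE2 and LRATD2 for TRIB1, and LPIN1 and LRATD1 for TRIB2, and regions of the windows were not assigned to any of these genes.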

How the data were processed

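Libraries were grouped by their titles. Per the submitters' processing notes the build was hg19 and the tools were MACS2 2.2.7.1, Bowtie2 2.3.5.1, Picard 2.18.23, Trim Galore, deepTools and SAMtools. Their settings and order are not given in the sources at hand. Each deposited list gives per peak a score (in 99.954% of peaks or more, −log10 q times 10 without its decimals), a fold, which is a ratio of summit to local background, and −log10 p- and q-values, all made by the authors. From the fold and p-value a whole-number summit and a background were recovered for 100% of peaks, within 0.001 of the deposited −log10 p-value. The length to which reads were extended before counting is not known.

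Peaks were merged at 1 bp of overlap (Python 3.11.15, pandas 2.3.3, numpy 2.4.6). Lengths and peak numbers were compared by exact permutation (scipy 1.17.1), and ranks over 40447 common regions by limma 3.58.1 in R 4.3.3, its prior variance trended on the mean. Merging, recovery and the rank test were tested on simulated data. Values are given for regions within 2 kb, gained regions, the 2 best-ranked common regions per window and the one with the largest rank change, and for others named in the text after their values were seen. Members and lists were chosen with earlier results of these data known. A list of pathway genes (ATF4, DDIT3, CEBPB, CEBPA, ATF3, COP1, AKT1, MAP2K1) was not analysed here, since no hg19 annotation was used.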

Additional observations from a re-analysis of the deposited data

How the results depend on the processing

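With 2 libraries a group and summits often under 20 reads, presence in a list near the threshold is imprecise. The number of gained regions in the 3 windows was 4, and it was 2 at a −log10 q of at least 10, 2 within 20 kb, and 5 to 8 with 1 library left out. The +33.31 kb site of TRIB1 was among them under each alternative except a window of 20 kb and a smallest width of 130 bp, a limit chosen after seeing the data. The number of lost regions was 0, was 1 at that width (TRIB1, +9.41 kb), and was 0 to 2 with 1 library left out. The number of TRIB2 and TRIB3 regions called by rank was 0, and 0 to 1 with 1 library left out. Replicate numbers showed little shared effect on ranks: the correlation over regions of the replicate differences between groups was 0.0111. The titles do not say whether the libraries were made in pairs. The replicate block gave 0 calls in these windows and 35 over the series, against 21 without it. Ranking by fold gave 0 calls over the series, a prior spread that does not follow the mean 0, and leaving out tunicamycin replicate 1 or 2 gave 4 or 13. TRIB3 regions with both tunicamycin ranks above, among common regions, numbered 7 of 13. They were 5 of 13 ranked by fold, 5 of 11 when gaps up to 250 bp were merged, 3 of 3 within 20 kb and 8 of 19 within 100 kb. With 1 library left out they were 7 to 9 of 13. The share over all common regions was then 33.3% to 34.3%, against 18.0% with none left out. These settings were all added after seeing the data. A rank change is the same by design under the replicate block and under the prior spread that does not follow the mean, so neither could reverse one. Of 98 alternative rank changes, which include these, 91 kept their direction. The 7 that did not came from leaving out 1 library, over which the changes ran from -0.351 to 0.273 at -49.88 kb, -0.161 to 0.0604 at +27.11 kb, -0.527 to 0.383 at -32.84 kb and -0.0319 to 0.384 at +48.31 kb, none with a called change. The cause was not tested. The local background ratio was 1.91 to 2.10 at +1.32 kb and 2.22 to 2.69 at +21.34 kb with 1 library left out, and 1.94 to 2.03 and 2.37 to 2.49 under other scalings, also added later. Over all common regions the median summit ratio was 0.126 on the log2 scale and 0.078 after scaling by the median summit. That scaling left 8 TRIB3 regions with both summits above and put 1 below; for local background it left 8 above and put 3 below.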
